A study of Rattus norvegicus with 6 samples.

Results

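Immediate early response genes are the genes that cells switch on first after a stimulus, and 10 of them were followed here in rat colon: the AP-1 and related leucine zipper genes Fos, Fosb, Jun, Junb and Atf3, the zinc finger genes Egr1 and Egr2, the nuclear receptor Nr4a1, and Ier2 and Ier3. Members were found by matching the accession of each array probe to RefSeq genes of the rat assembly GRCr8. Of the 10 genes, 9 had a matched probe, 1 probe each, and all 9 were in the deposited log2 table, out of 12418 genes that the table holds. No probe accession matched Fosb, so it was not analysed here. The groups were 3 male rats of the S.LEW congenic strain, which carries a segment of Lewis rat chromosome 10 on the Dahl salt-sensitive background, and 3 male Dahl salt-sensitive rats, called S. All 6 ate a low-salt diet, received azoxymethane (AOM), a colon carcinogen, intraperitoneally at 15 mg/kg in 2 weekly injections from 6 weeks of age, and were killed with carbon dioxide at 30 weeks. RNA came from harvested colon, 1 Agilent single-color array per rat. Whether tumor was part of the tissue is not given in the sources used here, and no untreated rats were analysed. The congenic arrays are called C1, C2 and C3 and the S arrays S1, S2 and S3.

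Immediate early genes need no new protein synthesis for their induction. Growth factors, stress and calcium signals reach them through MAP kinases, which activate serum response factor with its Elk partners at CArG boxes, and CREB at cyclic AMP response elements (CRE). Their mRNAs are short-lived, and most of the proteins are transcription factors: Fos and Jun proteins pair into AP-1, while Egr and Nr4a factors bind DNA through zinc fingers. In the intestine AP-1 is known for its link to crypt proliferation and to tumor growth.

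The S2 array stood apart from the other S arrays. Over 23997 probes, S1 and S3 correlated at 0.980, whereas S2 correlated with S1 at 0.900 and with S3 at 0.937. Its correlations with the congenic arrays were 0.976, 0.967 and 0.968 for C1, C2 and C3, so S2 lay nearer to the other strain than to its own. Differences of the members, of the other named genes and of the gene lists are therefore also given without S2 in most cases. Since S2 was singled out for lying near the other strain, leaving it out widens strain differences over the whole array, and calls made without it are no separate test of strain. Without S2, 7.19% of all probes were lower and 9.99% higher in the congenic strain at the study's cut-offs given below, and the counts without S2 are to be read beside these shares. Slides were inferred from the scan identifier in the file headers, arrays with the same identifier being taken as 1 slide. By this, C1, S1, S2 and S3 shared slide 1, and C2 and C3 shared slide 2, which held no S array. The within-slide comparison therefore sets C1 alone against the 3 S arrays.

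Over the whole array, limma with Benjamini-Hochberg adjustment called no probe at an adjusted p under 0.05, which is 0.0% of 23997. At an unadjusted p under 0.05 there were 3115 probes. The methods' t-test on the same values called 0 after adjustment and 2594 before it. Members are therefore also described at the cut-offs used in the study, a change of at least 2-fold at an unadjusted p under 0.05, with limma's p in place of that of the methods' t-test. At these cut-offs 1 of 9 members, Egr2, was lower in the congenic strain, where 2.34% of all probes were lower, and 0 of 9 were higher, where 3.23% of all probes were higher. With the p of the methods' t-test the members' counts were the same, while 0.742% of all probes were lower and 2.15% higher. Every congenic array lay below every S array for 2 of 9 members, Egr2 and Ier2, against 5.33% of all probes, and above every S array for 0 of 9, against 12.4%. With 3 arrays against 3, the exact two-sided permutation test cannot give a p below 0.10.

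**Figure D1:**
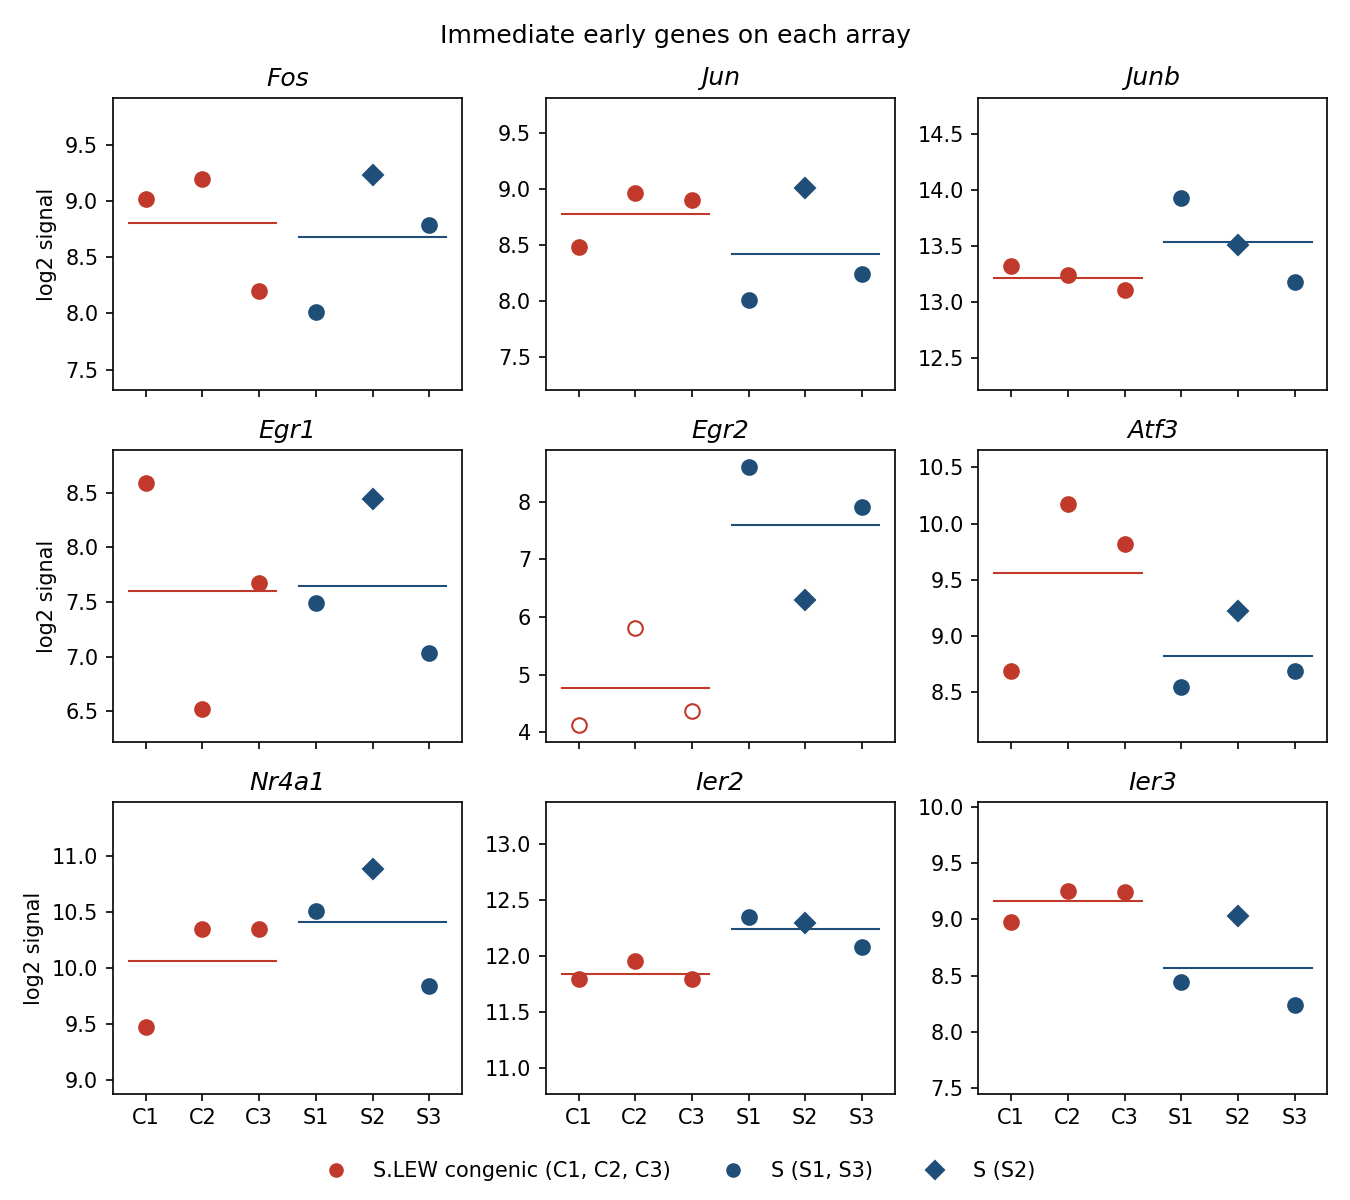
Log2 signal of the 9 measured members on each array, with congenic arrays in red, S arrays in blue, S2 as a diamond and group means as lines. Open circles mark Egr2 on the congenic arrays, where it was not well above background, and the strains separate without overlap for Egr2 and Ier2.

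Egr2 gave the widest separation between the strains among the members. It encodes a zinc finger factor best known for driving myelination in Schwann cells, and it is also induced by antigen receptors in lymphocytes. Its log2 signal was 4.13, 5.81 and 4.37 in C1, C2 and C3 and 8.60, 6.29 and 7.91 in S1, S2 and S3. All 3 congenic arrays lay below all 3 S arrays, with S1 and S3 high and S2 just above C2, by 0.48. The probe is spotted 10 times on each array. All 10 spots were well above background in S1, S2 and S3, against 1 spot in C1, 3 in C2 and 1 in C3. For the congenic level only a rough bound can therefore be given. Egr2 entered the table, which takes probes detected on at least 3 of 6 arrays, through its 3 S arrays alone, and its p-values carry that selection. The bound sets the S mean against, on each congenic array, the larger of 2 values, the Egr2 signal itself and the dimmest signal that still counted as well above background. By it, Egr2 was 5.62-fold higher in S than in the congenic strain in the deposited values. This is a rough bound and not a strict limit, since the dimmest such signal belonged to another probe. On C2 Egr2 read 5.81, above that signal at 5.62, yet was not well above background. With normexp background correction the difference was smaller, as given below.

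The measured Egr2 means were 4.77 ± 0.91 (SD, n = 3) in the congenic strain and 7.60 ± 1.19 (SD, n = 3) in S. The difference, S.LEW minus S, was -2.83 on the log2 scale (SE 0.70), with a limma adjusted p of 0.268, and an exact permutation p of 0.10, the smallest that 3 against 3 allows. Without S2 the difference was -3.48 and the rough bound was 8.85-fold. That comparison of 3 congenic with 2 S arrays gave a limma adjusted p of 0.0166, in a fit that called 10.6% of all probes lower and 12.5% higher at an adjusted p under 0.05. With normexp background correction, which adds an offset of 50 to each intensity, the difference was -1.53 (SE 0.41), with a limma adjusted p of 0.246. Within slide 1 it was -3.47. With S2 as the only S array, a setting chosen after seeing the data, the measured values differed by -1.52, and the rough bound was 2.27-fold. Colon is a mix of cell types, so fewer cells of a type and less RNA per cell cannot be told apart for Egr2 or any other gene here.

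Egr1, the closest relative of Egr2 among the members, is a broad growth factor and stress sensor that binds the same kind of GC-rich site. Its log2 signal was 8.59, 6.52 and 7.67 in C1, C2 and C3 and 7.49, 8.44 and 7.03 in S1, S2 and S3. The strains overlapped fully, with C1 and S2 high and C2 lowest. The difference was -0.06 (95% interval -1.50 to 1.38), the limma adjusted p was 0.967, and the sign turned to 0.34 without S2 and to 0.94 within slide 1. The range within the congenic strain alone was 2.07 log2 units.

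Egr2 and Ier2, the members whose strains did not overlap, are shown with the sequence before their starts, beside that of Egr1 for comparison. RefSeq (GRCr8) gave a promoter for 6 of the 10 members: Fosb, Junb, Egr1, Egr2, Nr4a1 and Ier2. Each run is the 250 bases before the start on the gene's own strand, at chr20:21054442-21054691 (minus strand) for Egr2, chr18:26736828-26737077 (plus strand) for Egr1 and chr19:40399123-40399372 (plus strand) for Ier2. Capitals mark the CArG box, the CRE (TGACGTCA) and the CRE core (TGACG), searched on both strands.
Egr2: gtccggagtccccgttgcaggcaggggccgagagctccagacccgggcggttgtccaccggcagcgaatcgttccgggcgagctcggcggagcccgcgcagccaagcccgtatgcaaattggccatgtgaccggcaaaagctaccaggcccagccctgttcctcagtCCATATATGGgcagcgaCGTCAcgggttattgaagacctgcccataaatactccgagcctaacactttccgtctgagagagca
Egr1: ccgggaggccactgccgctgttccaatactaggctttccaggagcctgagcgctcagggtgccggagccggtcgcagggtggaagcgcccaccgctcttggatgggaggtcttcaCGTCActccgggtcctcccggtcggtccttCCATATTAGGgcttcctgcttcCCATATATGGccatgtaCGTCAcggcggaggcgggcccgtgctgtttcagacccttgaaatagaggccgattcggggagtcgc
Ier2: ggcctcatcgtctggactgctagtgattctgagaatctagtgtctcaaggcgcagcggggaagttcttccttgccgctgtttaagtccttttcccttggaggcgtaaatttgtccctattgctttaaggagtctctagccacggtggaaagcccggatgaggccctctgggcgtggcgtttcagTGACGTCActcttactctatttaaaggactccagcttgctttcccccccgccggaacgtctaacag

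The Egr2 run holds 1 CArG box, starting 83 bases before the start, and 1 CRE core, 66 bases before it. The Egr1 run has a CArG box at 83 bases as well, a further one at 105, and CRE cores at 66 and 135 bases. The Ier2 run has no CArG box match and 1 full CRE at 66 bases, which contains 2 overlapping matches to the CRE core, 1 on each strand. Among the 6 members with a promoter, 2 held a CArG box, 1 a CRE and 5 a CRE core. Of all 33469 promoters, 1.50% held a CArG box in the same 250 bases, 1.59% a CRE and 18.2% a CRE core. The matches describe the letters in these windows only. The 6 promoters lie on chromosomes 1, 7, 18, 19 and 20, none on chromosome 10, which carries the congenic segment. Junb and Ier2 lie close together on chromosome 19, their starts 318247 bases apart.

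Ier2, a small nuclear protein of the early growth factor response, differed little in size but without overlap. Its log2 signal was 11.79, 11.95 and 11.79 in C1, C2 and C3 and 12.35, 12.29 and 12.08 in S1, S2 and S3. Every S array was higher than every congenic array, the closest being S3 and C2, 0.13 apart. Unlike for Egr2, S2 lay among the other S arrays. The means were 11.84 ± 0.09 and 12.24 ± 0.14 (SD, n = 3 each), and the difference was -0.40 (95% interval -0.81 to 0.02), with a limma adjusted p of 0.392 and an exact permutation p of 0.10. Without S2 it was -0.37, with a limma adjusted p of 0.150, and within slide 1 it was -0.45.

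Ier3, which modulates survival and NF-kappaB and ERK signaling under stress, ran the other way. Its log2 signal was 8.98, 9.25 and 9.24 in C1, C2 and C3 and 8.44, 9.03 and 8.24 in S1, S2 and S3. The congenic arrays were close together and above S1 and S3, and only S2 reached into their range, 0.05 above C1. The difference was 0.59 (95% interval -0.02 to 1.20), with a limma adjusted p of 0.389. Without S2 it was 0.82 with a limma adjusted p of 0.0283, which made Ier3 the 1 member of 9 called higher in that fit, as Egr2 was the 1 member called lower, where 12.5% of all probes were called higher and 10.6% lower. Within slide 1 the difference was 0.41, and against S2 alone it was 0.13.

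The AP-1 genes showed no common direction. Fos, the partner that joins Jun proteins in the classical AP-1 dimer, had a log2 signal of 9.02, 9.20 and 8.20 in C1, C2 and C3 and 8.01, 9.23 and 8.79 in S1, S2 and S3. S2 was highest, S1 lowest, and the strains overlapped, with a difference of 0.13 (95% interval -0.84 to 1.1) and a limma adjusted p of 0.886. Without S2 the Fos difference was 0.41, with a limma adjusted p of 0.472, and within slide 1 it was 0.34.

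Jun, the core AP-1 subunit that also acts as a homodimer, had a log2 signal of 8.48, 8.96 and 8.90 in C1, C2 and C3 and 8.01, 9.01 and 8.24 in S1, S2 and S3. Here S1 and S3 were the lowest arrays and S2 the highest. The difference was 0.36 (95% interval -0.39 to 1.11), with a limma adjusted p of 0.586. Without S2 it was 0.66, with a limma adjusted p of 0.0747, and within slide 1 it was 0.06.

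Junb, an AP-1 subunit that can restrain Jun at some promoters, had a log2 signal of 13.32, 13.24 and 13.11 in C1, C2 and C3 and 13.93, 13.51 and 13.18 in S1, S2 and S3. S1 and S2 were above all congenic arrays, and S3 fell between C3 and C2. The difference was -0.31 (95% interval -0.88 to 0.25) and the limma adjusted p 0.540, with -0.33 and a limma adjusted p of 0.374 without S2 and a difference of -0.22 within slide 1. With each rat left out it ranged from -0.49 (without S3) to -0.12 (without S1), and with array weights it was -0.05.

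Atf3, a stress-induced zipper factor that pairs with Jun proteins and often represses, had a log2 signal of 8.69, 10.17 and 9.82 in C1, C2 and C3 and 8.54, 9.22 and 8.69 in S1, S2 and S3. C2 and C3 were above every S array, whereas C1 sat with S1 and S3. C2 and C3 were also the arrays of slide 2. The difference was 0.74 (95% interval -0.26 to 1.75), with a limma adjusted p of 0.458. Without S2 it was 0.94, with a limma adjusted p of 0.177. It was 1.17 without C1, past the study's cut-offs, and -0.13 within slide 1, so strain and slide cannot be told apart for this gene.

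Nr4a1, an orphan nuclear receptor induced by calcium and antigen signals, had a log2 signal of 9.48, 10.35 and 10.35 in C1, C2 and C3 and 10.51, 10.88 and 9.84 in S1, S2 and S3. S1 and S2 were above every congenic array, S3 was below C2 and C3, and C1 was lowest. The difference was -0.35 (95% interval -1.24 to 0.53), with a limma adjusted p of 0.651. It was -0.11 without S2, with a limma adjusted p of 0.835, and -0.93 within slide 1.

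**Figure D2:**
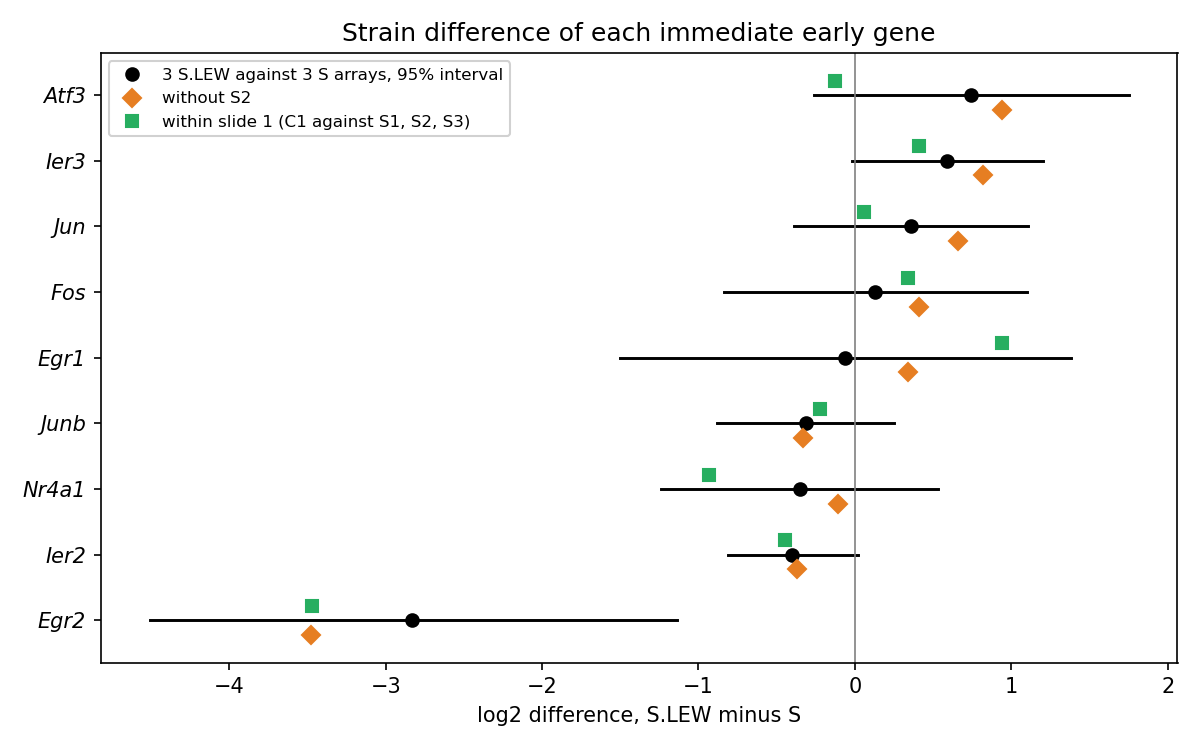
Log2 difference, S.LEW minus S, of each member with its 95% interval (black), beside the difference without S2 (orange diamonds) and that within slide 1 (green squares). The interval of Egr2, from -4.51 to -1.14, is the only one of the 9 that does not include 0. That interval rests on congenic signal at background level and on a probe detected in S rats only. It therefore carries this selection, and the limma adjusted p of Egr2 was 0.268.

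Across the 9 members, 4 had a difference above 0 and 5 below, and the median difference was -0.06, beside 0.03 over all 12418 genes. Without S2 the members' median was 0.34, within slide 1 it was -0.13, and against S2 alone it was -0.42. S2 was the highest array for 3 members (Fos, Jun and Nr4a1) and the lowest for 0. S1 was highest for 3 (Junb, Egr2 and Ier2) and lowest for 3 (Fos, Jun and Atf3). As the mean of the members after centring each gene, the arrays stood at -0.26, 0.06 and -0.16 for C1, C2 and C3 and 0.11, 0.34 and -0.10 for S1, S2 and S3. S2 was the highest array and C1 the lowest, and the strains overlapped, since S3 lay between C3 and C2. By the median of the centred members S2 was again highest, at 0.25, but S3 was lowest, at -0.36.

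The other AP-1, Egr and Nr4a family genes, with the Nab co-repressors, were examined in the same way. Of 18 such genes 17 had a probe and 15 were tested, of which 1 was lower in the congenic strain at the study's cut-offs and 0 were higher, where 2.34% of all probes were lower and 3.23% higher. Without S2, 3 were lower and 1 higher, where 7.19% of all probes were lower and 9.99% higher. Their median difference was -0.32, beside 0.03 over all genes, and it was -0.36 without S2, -0.40 within slide 1 and -0.49 against S2 alone. The probe of Egr4 was well above background on 0 arrays and that of Fosl1 on 1 S array, and the table does not hold them. Batf2 had no matched probe.

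Nab2, which binds Egr1 and Egr2 and represses their targets and is itself an Egr-induced gene, was the family gene past the cut-offs. Its log2 signal was 9.28, 9.52 and 9.79 in C1, C2 and C3 and 11.11, 10.35 and 10.67 in S1, S2 and S3. All congenic arrays lay below all S arrays, and the order of the S arrays, S1 then S3 then S2, was that of Egr2. The difference was -1.18 (SE 0.26), with a limma adjusted p of 0.244 and an exact permutation p of 0.10. It was -1.36 without S2, with a limma adjusted p of 0.0187, -1.43 within slide 1, -0.98 without S1 and -0.82 against S2 alone. Its relative Nab1 also separated the strains, from 7.46 to 8.04 in the congenic arrays and from 8.19 to 8.34 in S, a difference of -0.44 with a limma adjusted p of 0.416, and of -0.43 without S2, with a limma adjusted p of 0.211.

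Batf, a zipper factor of lymphocytes that pairs with Jun proteins, split the S rats. Its log2 signal was 5.67, 5.61 and 5.94 in C1, C2 and C3 and 10.00, 5.60 and 9.51 in S1, S2 and S3. S1 and S3 were high, and S2 was the lowest of all 6 arrays. The difference of -2.63 had a limma adjusted p of 0.388, and without S2 it was -4.02 with a limma adjusted p of 0.0011, and the probe was well above background on 2 of the 3 congenic arrays. Batf3, its close relative in dendritic cells, gave 4.39, 5.36 and 5.90 in C1, C2 and C3 and 6.75, 5.00 and 7.11 in S1, S2 and S3, with the same arrays high, and was well above background on 1 congenic array. Its measured difference of -1.07, and -1.72 without S2, thus rests in part on signal at background level, and it was -0.49 with normexp correction, beside -1.92 for Batf.

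S2 was the highest array for 9 of the 15 family genes, and in 8 of these S1 was under S3. Among them Nr4a3, Nr4a2 and Egr3 are set out here. Nr4a3, a relative of Nr4a1, gave log2 signals of 6.21, 7.50 and 7.57 in C1, C2 and C3 and 7.14, 9.24 and 8.29 in S1, S2 and S3. Nr4a2 gave 9.22, 9.33 and 9.42 in the congenic arrays and 7.89, 10.47 and 9.43 in S1, S2 and S3, and Egr3 gave 6.21, 5.98 and 5.72 against 6.13, 7.51 and 6.66. The differences were -1.13 for Nr4a3, 0.06 for Nr4a2 and -0.79 for Egr3, with limma adjusted p of 0.447, 0.966 and 0.406. Without S2 they were -0.62, 0.67 and -0.42. Nr4a3 passed the cut-offs under 4 of 16 alternatives with a test: array weights, the replicate block, slide as a block (-2.02) and leaving out S1 (-1.67). A further Egr3 probe was highest in C3 and differed by 0.10, and a further Nr4a2 probe by -0.33, so that the sign was not the same for both probes of either gene. In their list means, markers of muscle, enteric neurons and glia, fibroblasts and colon epithelium had the same order of S arrays, though not every gene did. Their mean centred log2 signal in S1, S2 and S3 was -1.59, 0.72 and -0.63 for smooth muscle, -0.11, 1.03 and 0.46 for striated muscle, -1.12, 0.79 and -0.48 for enteric neurons and glia, -0.53, 0.34 and -0.33 for fibroblasts and -0.47, -0.18 and -0.39 for epithelium. Heat shock genes had S1 lowest, with S2 and S3 level, at -0.45, 0.11 and 0.10. Their summed log2 signal was highest in S3, at 16.57, 16.81 and 17.06 in S1, S2 and S3. The part of these lists in the Nr4a3, Nr4a2 and Egr3 values was not tested.

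Maff, a small Maf protein without an activation domain, was lower on every congenic array, from 6.34 to 6.75 against 6.89 to 7.46, a difference of -0.53 with a limma adjusted p of 0.392, and -0.36 without S2. Atf5, a stress factor, had a difference of 0.61, with S1 and S3 lowest at 10.21 and 10.59, and 1.03 without S2. Jund, the most steadily expressed Jun protein, Fosl2, Jdp2, Atf2, Atf4 and Mafk had differences from -0.32 (Atf2) to 0.20 (Jund), all with strains that overlapped.

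**Figure D3:**
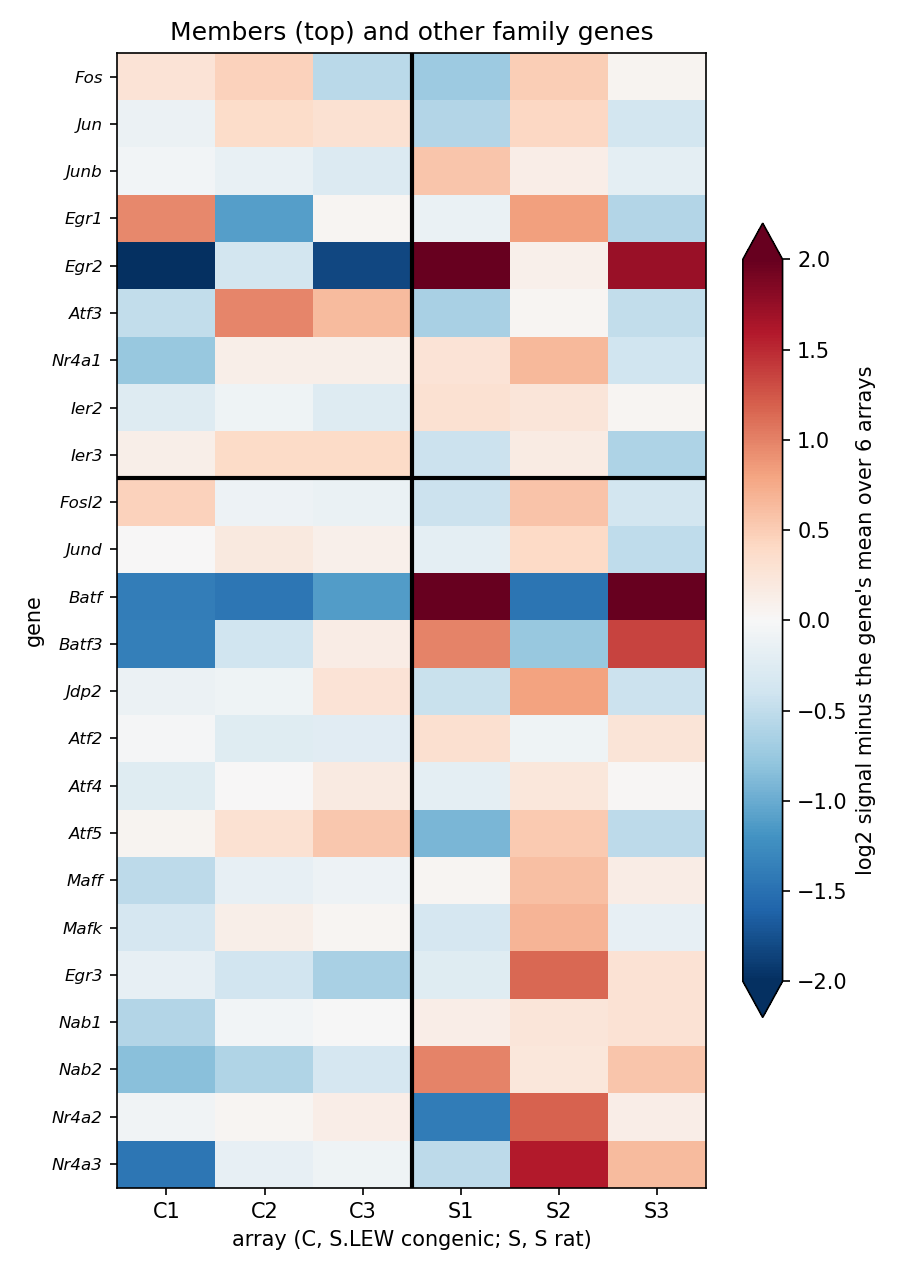
Log2 signal of each member (above the line) and each other family gene (below it) minus that gene's mean over the 6 arrays, with colors held at 2 log2 units either way. Egr2 and Batf show the widest contrasts, with S1 and S3 high in both, and Nr4a3, Nr4a2 and Egr3 are highest in S2.

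Beyond these families, 42 other immediate early genes were listed, of which 39 were tested. Of these 3 were lower in the congenic strain at the study's cut-offs, Klf2, Gadd45b and Id3, and 0 were higher, where 2.34% of all probes were lower and 3.23% higher, with a median difference of -0.09. Without S2, 9 were lower and 2 higher, where 7.19% of all probes were lower and 9.99% higher, with a median of 0.08. By the methods' t-test only Gadd45b kept the call, where 0.742% of all probes were lower. Gadd45b, a stress protein that controls MAP kinase signaling and growth arrest, gave 8.28, 8.18 and 8.37 in C1, C2 and C3 and 10.15, 9.09 and 9.82 in S1, S2 and S3. Klf2, a quiescence factor of lymphocytes and endothelium, gave 8.00, 8.11 and 8.73 against 10.59, 8.78 and 9.95 in the same order. Id3, an inhibitor of basic helix-loop-helix factors, gave 8.68, 8.95 and 8.79 against 10.73, 8.89 and 10.44. In all 3 genes S1 and S3 were the highest arrays. S2 was clear of the congenic arrays for Gadd45b, barely above C3 for Klf2 and within their range for Id3. The differences were -1.41, -1.50 and -1.21, with limma adjusted p of 0.228, 0.332 and 0.377. Without S2 they were -1.71, -1.99 and -1.78, with limma adjusted p of 0.00581, 0.0161 and 0.00549. Klf2 and Id3 lost the call under 5 and 8 of 16 alternatives with a test, among them the methods' t-test, slide as a block and leaving out S3.

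Upstream of the members, 23 of 29 listed kinases and factors were tested. Of these 0 were past the cut-offs in either direction, where 2.34% of all probes were lower and 3.23% higher. Their median difference was -0.03. Without S2, 3 were lower, Elk3, Map3k1 and Elk4, and 0 higher, where 7.19% of all probes were lower and 9.99% higher, with a median of 0.08. These 3 differed by -1.25, -1.15 and -0.69 with all arrays and by -1.89, -1.86 and -1.09 without S2. Srf, the factor that binds CArG boxes, had log2 signals of 13.26, 13.45 and 13.74 in C1, C2 and C3 and 12.66, 13.74 and 12.81 in S1, S2 and S3, with S1 and S3 lowest. Its difference was 0.41 with a limma adjusted p of 0.559, and 0.75 without S2, with a limma adjusted p of 0.0480. Heat shock genes, a separate stress response, had 0 of 10 tested genes past the cut-offs and a median of -0.01, against 1 higher, 0 lower and 0.03 without S2, beside the same shares of all probes.

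Of 26 listed target genes of AP-1 and Egr factors, 22 were tested, with 3 lower in the congenic strain at the cut-offs, 0 higher, where 2.34% of all probes were lower and 3.23% higher, and a median of -0.03. Without S2, 5 were lower and 2 higher, where 7.19% of all probes were lower and 9.99% higher, with a median of 0.07. By the methods' t-test 2 were lower and 0 higher, where 0.742% of all probes were lower and 2.15% higher. These counts take the brightest probe of each gene. For Cd44 that probe differed by 0.29, while a dimmer probe was higher at the cut-offs in limma, by 1.20 (limma adjusted p 0.332). The remaining Cd44 probes differed by 0.70 and 1.19, short of the cut-offs. Icam1, an adhesion molecule for leukocytes, had log2 signals of 8.41, 8.92 and 8.76 in C1, C2 and C3 and 11.71, 9.08 and 11.45 in S1, S2 and S3. Ccl2, a chemokine that draws monocytes, gave 6.50, 7.47 and 7.37 against 9.11, 8.23 and 9.32. In both the strains did not overlap, and S2 was the lowest S array. The differences were -2.05 and -1.77, with limma adjusted p of 0.340 and 0.245. Without S2 they were -2.88 and -2.10, with limma adjusted p of 0.00238 and 0.0163. Icam1 lost the call under 6 of 16 alternatives with a test, with the methods' t-test, slide as a block and leaving out S3 among them.

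Most lymphoid markers were high on the same S arrays. Of 11 tested lymphoid markers 7 were lower in the congenic strain at the cut-offs and 0 higher, where 2.34% of all probes were lower and 3.23% higher. By the methods' t-test 0 were lower and 0 higher, where 0.742% of all probes were lower and 2.15% higher. The median difference was -2.31. Without S2, 10 were lower and 0 higher, where 7.19% of all probes were lower and 9.99% higher, with a median of -3.10, and against S2 alone the median was -0.08. Their summed log2 signal was 11.68, 11.37 and 11.31 in C1, C2 and C3 and 16.12, 11.69 and 15.76 in S1, S2 and S3. S1 and S3 were high, and S2 was at the congenic level. Pax5, the brightest marker in the congenic strain, did not have this order. It gave 10.26, 10.00 and 9.98 in C1, C2 and C3 and 10.04, 10.46 and 9.77 in S1, S2 and S3, a difference of -0.02. Cd3d, the brightest of the tested markers in the mean over 6 arrays though in neither strain alone, and a part of the T cell receptor complex, gave 10.00, 9.47 and 9.47 in C1, C2 and C3 and 11.20, 9.72 and 11.25 in S1, S2 and S3, a difference of -1.08, and -1.58 without S2. Among the lymphoid genes past the cut-offs, Ccl19, Lck and Cd5 differed by -6.50, -3.43 and -3.09, and by -9.38, -5.19 and -4.37 without S2. They lost the call under 7 of 15, 8 of 16 and 6 of 15 alternatives with a test, the methods' t-test among them, and Lck also changed sign, to 0.09, against S2 alone. Ccl19 was well above background on 1 congenic array and Cd5 on 2, so their measured differences rest in part on signal at background level, and with normexp correction they were -5.10 and -2.03. The B cell marker Cd79b and the T cell markers Cd3e and Cd2 were well above background on only 2 arrays each, both from S rats, and the table does not hold them. The part of lymphoid cells in the Egr2, Nab2, Gadd45b, Klf2, Icam1 and Ccl2 differences was not tested.

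**Figure D4:**
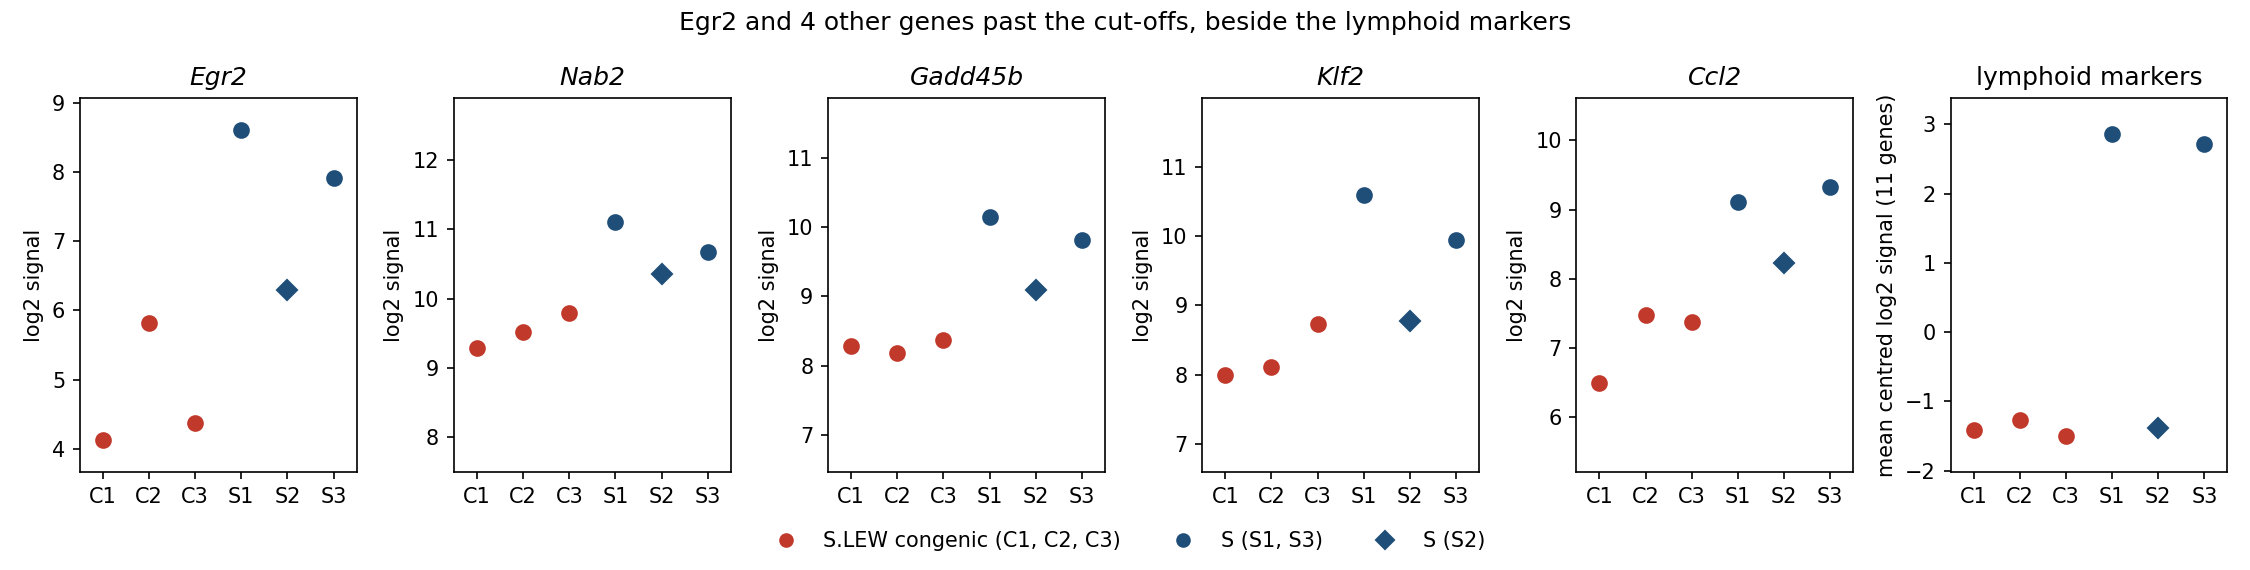
Log2 signal of Egr2, Nab2, Gadd45b, Klf2 and Ccl2 on each array, beside the mean centred log2 signal of 11 lymphoid markers, with every vertical axis spanning the same number of log2 units. S1 and S3 are high in every panel, and S2 is the lowest S array in each.

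The members did not all move together over the 6 arrays, with pairwise Pearson correlations from -0.82 (Egr2 and Ier3) to 0.88 (Jun and Ier3). Their centred mean was not scaled by gene, so Egr2, with the widest range at 4.47 log2 units, weighed most in it. Other genes were compared with this mean by Pearson correlation, among 10765 genes well above background on all arrays. The 8 highest were Vwa1 (0.970), Sidt1 (0.942), Sqle (0.941), Arfgap1 (0.940), Kctd9 (0.929), Homer3 (0.927), Chn2 (0.921) and Hmgcs1 (0.920), and the 2 lowest were Emc2 (-0.970) and Pfdn1 (-0.988). Sqle and Hmgcs1 are enzymes of cholesterol synthesis. Hmgcs1 had log2 signals of 12.55, 12.82 and 12.29 in C1, C2 and C3 and 13.10, 13.69 and 12.79 in S1, S2 and S3. As with the members' mean, S2 was its highest array. These coefficients are the extremes of many and describe 6 arrays only.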

How the data were processed

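Colon RNA of 6 rats was hybridized to Agilent rat arrays. Per the file headers and the submitters' processing notes, the authors scanned them with Agilent Feature Extraction 11.0.1.1, and the scanner files hold a background-corrected intensity per spot. The deposited series table holds log2 values that the authors quantile-normalized, for 23997 probes that they took as detected on at least 3 of 6 arrays. Its columns correlated at 0.9986 to 0.9998 with log2 intensity of the same array, their medians were 8.55 to 8.57, and they were not centred by gene. These deposited log2 values are the values given, and the scanner files gave detection (well above background on at least 50% of a probe's spots), slide and alternatives. By this detection rule 23974 of the table's probes were detected on at least 3 arrays, so it is not quite the authors' rule. Between 73.8% and 87.6% of spots, control spots left out, were well above background on an array.

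Accessions matched 18005 of 30367 probes to 15168 RefSeq genes (GRCr8). A gene with several probes is given by the brightest. The strain term was fitted without covariates by lmFit and eBayes of limma 3.58.1, under R 4.3.3, and p-values were adjusted by Benjamini-Hochberg over all probes of the table. Intervals are 95% limma intervals. Single genes were also given exact two-sided permutation tests. Tables and plots used Python 3.11.15, pandas 2.3.3, numpy 2.4.6, scipy 1.17.1 and matplotlib 3.10.9. The fit was tested on simulated data. Promoter sequences were searched for motifs on both strands.

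The named genes are every member, every tested family gene, genes of each other list past the study's cut-offs (at most 4 by size of difference), the most abundant marker of each list by its mean over the 6 arrays, and the 8 genes most and 2 least like the members' mean. Of the genes this rule takes, 2 are not reported here. Cd79b, Cd3e, Cd2, Pax5, Cd44, Srf, Elk3, Map3k1 and Elk4 fall outside that rule and were chosen after their values were seen. The members and lists were chosen with earlier results of these data known. The scanner files hold no mean signal, so normexp correction used the median signal and local background, fitted on all spots before control spots were left out. Alternatives were other normalizations and background correction, detection filters, kept outlier spots, weights for arrays, a block for replicate number or for slide, the methods' t-test, and each rat left out. The setting with S2 alone for the S strain, and the slide values of the lists, were added after seeing the data.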

Additional observations from a re-analysis of the deposited data

How the results depend on the processing

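Egr2 stayed lower in the congenic strain and past the study's cut-offs under every alternative that tested it, the methods' t-test among them. It was detected on its 3 S arrays alone by the rule used here, so these calls carry that selection. Without the detection filter, in the scanner signal, Egr2 differed by -3.07 (limma adjusted p 0.273). It was not tested where a probe had to be well above background on all 6 arrays, which left 0 members called lower, and its difference ranged from -3.48 to -2.33 with each rat left out, its bound from 3.98-fold to 8.85-fold. Ier2 and Junb kept their direction throughout. With normexp, which adds an offset of 50, Egr2 differed by -1.53 (SE 0.41, limma adjusted p 0.246), beside -2.83 in the deposited values. For the 9 members, 133 of 143 values from alternatives with a test kept direction and side of the cut-offs, and 14 of 18 values without a test kept direction. The alternatives reuse the same arrays, and only Egr2 was past the cut-offs with all arrays, so these counts are no independent checks. The number of members called higher was 0 to 1 with each rat left out, the 1 being Atf3 without C1. Among the other family genes, Batf, Nr4a3, Batf3, Atf5 and Egr3 passed the cut-offs under 5 of 15, 4 of 16, 2 of 15, 1 of 16 and 1 of 16 alternatives with a test.

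The array-wide counts moved. With all arrays 776 probes were higher and 562 lower at the cut-offs. The higher count was 359 with normexp correction, 515 by the methods' t-test and 2000 with array weights, and 477 to 2397 with each rat left out. The lower count was 342 with detection on all arrays, 178 by the methods' t-test, 1649 with array weights and 227 with slide as a block, and 192 to 1725 with each rat left out. The higher probes were 58.0% of calls, 47.7% after scaling to the 75th percentile, 48.8% with normexp, 66.5% with detection on all arrays, 74.3% by the methods' t-test, 70.8% with slide as a block and 56.2% to 71.3% with each rat left out. At an adjusted p under 0.05, array weights called 4834 higher and 3715 lower, and scaling to the 75th percentile called 1 lower. With each rat left out the adjusted counts were 0 to 2999 higher and 0 to 2554 lower, the highest in each case without S2. With the replicate block the counts were 794 and 744, and Egr2 was -2.83 with a limma adjusted p of 0.437. Rats of the same number did not deviate together (correlations -0.0156, -0.1304 and -0.0609), so the numbers gave no sign of pairing. Per the paper, a congenic rat shared each cage with an S rat, and the sample labels name no cage mates.

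The cause of each change of sign was not tested. Egr1 turned from -0.06 to 0.06 with normexp, 0.35 with array weights and 0.94 with slide as a block. Slide as a block also turned Atf3 from 0.74 to -0.13, Jdp2 from 0.05 to -0.10 and Nr4a2 from 0.06 to -0.05. Array weights turned Nr4a1 from -0.35 to 0.12 and Mafk from -0.12 to 0.12. Against S2 alone, a setting chosen after seeing the data and without a test, Lck turned from -3.43 to 0.09, Fos from 0.13 to -0.42, Jun from 0.36 to -0.23, Fosl2 from 0.16 to -0.49, Jund from 0.20 to -0.30, Jdp2 from 0.05 to -0.78, Atf5 from 0.61 to -0.23, Nr4a2 from 0.06 to -1.15, Batf from -2.63 to 0.14 and Batf3 from -1.07 to 0.21. With each rat left out, Fos ranged from -0.20 to 0.43, Egr1 from -0.56 to 0.48, Fosl2 from -0.03 to 0.48, Jdp2 from -0.16 to 0.47, Atf4 from -0.14 to 0.08, Mafk from -0.31 to 0.19 and Nr4a2 from -0.63 to 0.67. Egr2 was not well above background on the congenic arrays, so only a rough bound is given for it there.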

Other observations

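The other cell type markers also differed between arrays. Counts at the study's cut-offs stand beside 2.34% of all probes lower and 3.23% higher, and those without S2 beside 7.19% lower and 9.99% higher. Smooth muscle markers had 1 of 10 tested genes, Smtn, higher in the congenic strain at the study's cut-offs and a median difference of 1.02, which was 1.64 without S2 and -0.20 against S2 alone. Without S2, 8 were higher and 0 lower. Smtn differed by 1.12, and 1.65 without S2, and lost the call under 10 of 16 alternatives with a test, the methods' t-test among them. Actg2, their most abundant gene, gave log2 signals of 17.53, 17.56 and 17.62 in C1, C2 and C3 and 16.19, 17.62 and 17.17 in S1, S2 and S3. S1 was lowest and S2 level with the congenic arrays, and the difference was 0.58, and 0.89 without S2. Colon epithelium markers had 3 of 15 higher, Fabp2, Slc26a3 and Vil1, 0 lower and a median of 0.80, against 3 higher, 0 lower and 0.93 without S2. Fabp2, Slc26a3 and Vil1 lost the call under 0, 4 and 5 of 16 alternatives with a test. Lgals4, the most abundant gene of that list, gave 16.63, 16.37 and 16.42 in C1, C2 and C3 and 15.83, 15.77 and 15.40 in S1, S2 and S3, without overlap and with a difference of 0.80 (limma adjusted p 0.268), and 0.85 without S2 (limma adjusted p 0.0353).

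Striated muscle markers had 3 of 10 lower, Mybpc1, Myh1 and Tnnt3, 0 higher and a median of -0.43, against 4 lower, 1 higher and -0.07 without S2. Mybpc1, a myosin-binding protein of slow muscle, gave 4.02, 4.81 and 4.16 in C1, C2 and C3 and 8.23, 7.63 and 7.80 in S1, S2 and S3. Its probe was well above background for the S strain only, 3 arrays against 0. By the same rough bound as for Egr2, its level there was 7.15-fold that of the congenic strain (limma adjusted p 0.116). Without S2 the bound was 7.82-fold (limma adjusted p 0.00297), and with normexp correction the log2 difference was -1.77. Myh1 was likewise well above background on 0 congenic and 3 S arrays, with a rough bound of 2.09-fold, and 1.73-fold without C1. With normexp correction it differed by -0.99. Both genes were detected on their S arrays alone by the rule used here, so their calls carry that selection. Ckm, the most abundant of that list, differed by 0.15, and 0.67 without S2, with S2 highest at 14.87 and S1 lowest at 12.79.

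Myeloid markers had 2 of 16 higher, Cd163 and Mrc1, and 1 lower, Csf1r, with a median of -0.69, which was 0.39 against S2 alone. Without S2, 2 were higher and 7 lower, with a median of -1.02. By the methods' t-test 2 were higher and 0 lower, where 2.15% of all probes were higher and 0.742% lower. Cd163, Mrc1 and Csf1r lost the call under 1, 6 and 7 of 16 alternatives with a test, and a further Csf1r probe differed by -0.25. Lyz2, the most abundant gene of that list, was 15.66 and 15.20 in S1 and S3, 11.62 in S2 and from 11.68 to 12.19 in the congenic arrays, a difference of -2.21, and -3.48 without S2. Adipocyte markers had 2 of 8 higher, Adipoq and Cfd, 0 lower and a median of 0.86, against 2 higher, 0 lower and 0.92 without S2. By the methods' t-test 1, Cfd, was higher, where 2.15% of all probes were higher. Pck1, their brightest gene in the mean over 6 arrays and in S but not in the congenic strain, differed by -0.12, and by 0.53 without S2. Endothelial, fibroblast, and enteric neuron and glia markers had 0 of 9, 0 of 11 and 0 of 10 genes past the cut-offs, with medians of -0.24, 0.28 and 0.55. Without S2, 1 endothelial marker was lower, and 3 fibroblast and 3 enteric markers were higher, with medians of -0.14, 0.57 and 0.90. Their most abundant genes, Kdr, Col3a1 and Uchl1, differed by -0.27, 0.50 and 0.86, and by -0.38, 1.06 and 1.52 without S2.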
